A study of Homo sapiens with 6 samples.

Results

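RAB GTPases were followed through the splicing and junction read data of NCI-H1975 cells, a human lung adenocarcinoma cell line, with and without extra SAM68. The events were all listed splicing events of genes whose symbol is RAB followed by a number and at most 1 letter and 1 further digit, with a mean of at least 10 junction reads over the 6 libraries. This gave 183 events in 37 genes, out of 205 listed events in 38 RAB genes and 66395 events of all genes with as many reads. The 183 events comprised 132 skipped exons (SE), 28 pairs listed as mutually exclusive exons (MXE), 11 alternative 3ʹ splice sites (A3SS), 6 alternative 5ʹ splice sites (A5SS) and 6 retained introns (RI).

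The control group (3 libraries) received the empty PCDNA3.1 plasmid and the SAM68 group (3 libraries) the PCDNA3.1-SAM68 plasmid, at 2 µg per well by lipofection, and both were harvested after 48 h. Both groups therefore share the transfection itself, and the SAM68 group models transient excess of the protein in a single cell line that keeps its own SAM68. SAM68, encoded by KHDRBS1, is an RNA-binding protein that changes the choice of splice sites. The libraries are named by their place in the deposited lists, and the study's methods call the 3 of each group biological replicates of the harvested cells.

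RAB proteins are small GTPases that switch between a GDP-bound and a GTP-bound form and mark the membranes of the secretory and endocytic pathways. Exchange factors (GEFs) load them with GTP, TBC-domain proteins (GAPs) end the active state, and GDI carries the lipid-modified, inactive protein through the cytosol. In their active form they recruit effectors such as tethers, motors and adaptors. In tumor cells they are known for controlling the return of receptors and integrins to the surface and the release of vesicles.

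A pair of exons of RAB6A, which directs traffic at the Golgi apparatus, is the textbook case of a RAB gene with a choice between alternative exons, and both lie wholly within coding sequence on the minus strand of hg38, at chr11:73718785-73718890 and chr11:73718613-73718718. They are shown because the RAB6A result concerns the choice between them, and capitals mark the bases that differ.

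RAB6A exon nearer the 5ʹ end: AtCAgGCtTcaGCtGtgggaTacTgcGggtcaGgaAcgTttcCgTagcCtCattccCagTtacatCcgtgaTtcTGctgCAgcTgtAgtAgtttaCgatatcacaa

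RAB6A exon nearer the 3ʹ end: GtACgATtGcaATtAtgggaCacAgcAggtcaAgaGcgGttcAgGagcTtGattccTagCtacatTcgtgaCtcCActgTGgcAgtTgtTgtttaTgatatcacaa

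Each of these exons has 106 nt, with 66 bases of genome between them. They differ at 31 bases, an identity of 70.8%, and 3 of the 35 whole codons change the amino acid. No annotated transcript (GENCODE 44) holds both exons, whereas 2 hold the first and 2 the second.

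The next exons are shown because a junction that leaves out the first of them gave the smallest p of all RAB genes (RAB4B) and because skipping reads of the second (RAB29) were likewise seen in the control libraries alone. Capitals mark the exon, and the 20 bases on either side are intron. RAB4B exon 2 lies at chr19:40780019-40780099 on the plus strand (81 nt) and RAB29 exon 3 at chr1:205772496-205772567 on the minus strand (72 nt), both in coding sequence. The skipping reads of the RAB4B event join exon 1 to exon 4 of the canonical transcript and so leave out exons 2 and 3, 196 nt in all, whereas those of the RAB29 event join exons 2 and 4 and leave out exon 3 alone.

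RAB4B exon 2: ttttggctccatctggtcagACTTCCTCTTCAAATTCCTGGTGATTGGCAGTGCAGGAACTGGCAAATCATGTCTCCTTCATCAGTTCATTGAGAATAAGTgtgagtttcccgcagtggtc

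RAB29 exon 3: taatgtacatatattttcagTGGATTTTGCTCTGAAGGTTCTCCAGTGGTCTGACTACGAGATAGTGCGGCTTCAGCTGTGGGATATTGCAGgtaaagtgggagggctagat

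For RAB4A exon 5 (chr1:229297482-229297636, plus strand, coding) the choice is between 2 acceptor sites 38 nt apart, and capitals mark the 38 nt that only the longer form contains. The 20 bases before them are intron.

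RAB4A exon 5: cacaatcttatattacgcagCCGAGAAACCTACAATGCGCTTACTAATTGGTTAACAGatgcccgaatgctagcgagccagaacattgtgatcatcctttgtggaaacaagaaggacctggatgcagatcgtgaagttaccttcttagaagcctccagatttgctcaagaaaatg

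Across the series, junction reads per library ranged from 16951876 to 19737729 in SE events and from 1188660 to 4692048 in each of the other 4 types. KHDRBS1 junction reads rose from 318.5 ± 8.91 to 1255 ± 23.1 RPM (reads per 1000000 junction reads of the most read events, SD, n = 3), a log2 fold change of 1.98 with an SE of 0.0473 (adjusted p = 1.16e-21, limma), in the direction of the group labels. The epithelial keratins KRT8 and KRT18 were read at 229.5 to 519.6 and 471 to 530.1 RPM, whereas NAPSA, a marker of lung alveolar cells, did not exceed 0.918 RPM in any library. The tables list only genes with a splicing event, so other markers of the cell type were not checked.

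No RAB event passed the test between control and SAM68 cells. PSI, the percentage of an event's length-normalized junction reads that hold the exon or the longer form, was compared with a quasi-binomial model, with a call set at a difference of at least 10 points and an adjusted p below 0.05. Of the 183 events 0 were called, against 18 of all 66395 (0.0271%), and 0 had an adjusted p under 0.05 without the limit on the difference (0.0979% of all events). At an unadjusted p under 0.05 there were 10 RAB events, 5.46% against 8.46% of all events. With limma on the logit of PSI 4 RAB events had an unadjusted p under 0.05 and 0 were called. A likelihood ratio test on pooled counts, which ignores the spread between libraries, called 2 RAB events, both in RAB9A (1.09%, against 2.04% of all events), and gave 8 an adjusted p under 0.05 (4.37%, against 6.24%). A dispersion shared by all events of a type called 0 RAB events and 0.142% of all.

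The differences were small where reads were many. The median absolute PSI difference was 0.848 points over the RAB events and 1.24 points over all events, and 101 of the 183 differed by less than 1 point and 168 by less than 5. The 95% interval of the difference stayed within 10 points on either side of 0 for 147 events, whose median depth was 223.2 reads per library. The other 36, with a median of 42 reads, had intervals that reach 10 points or more on at least 1 side.

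**Figure D1:**
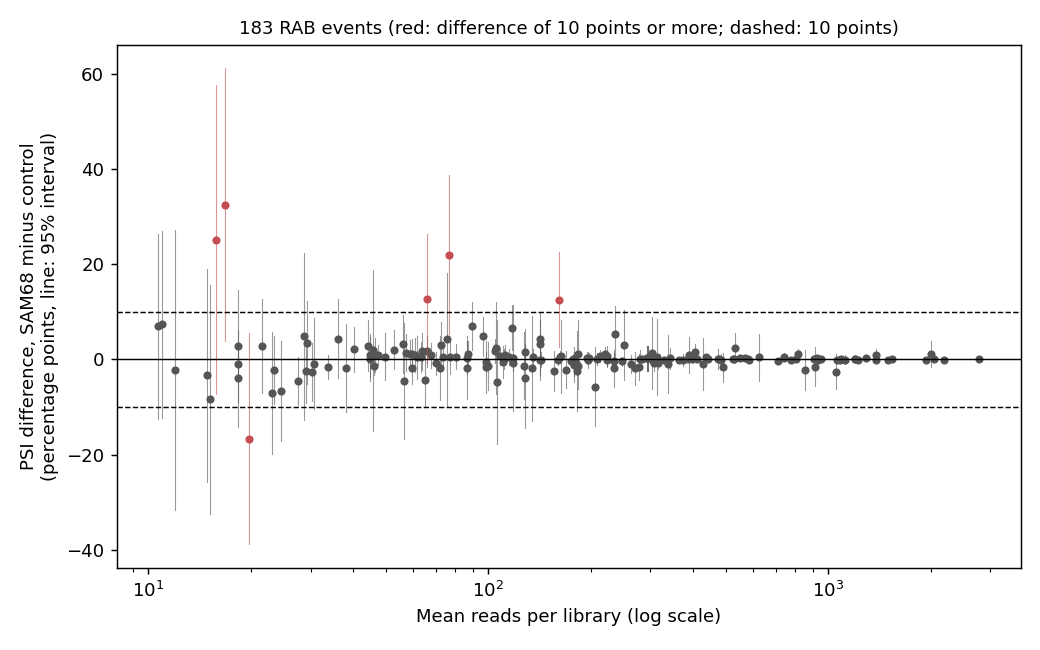
Each point is 1 of the 183 RAB events, placed by its mean reads per library (log scale) and its PSI difference in percentage points (SAM68 minus control), with its 95% interval as a line. The 6 events that differ by 10 points or more (red) have at most 162 reads per library, and the points of deeper events lie closer to 0.

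In most RAB events the exon or the longer form was nearly always included. The mean PSI was above 95% in 114 of the 183 events and under 5% in 26, and it lay between 10 and 90% in 31 (16.9%, against 23.4% of all events). Events in that range are called alternative here, and 20 of the 31 are exon pairs. Of the 28 pairs, 26 have an annotated transcript that holds both exons, so their PSI need not measure a choice. Among SE events 10 of 132 lay in that range (7.58%, against 14.6% of all SE events). PSI was at least 95% in every library for 83 events. The SE events concerned 105 distinct exons, of which 95 belong to a coding transcript, 73 to the canonical transcript of their gene and 39 have a length that is a multiple of 3. The skipping junction need not leave out the listed exon alone: in 38 of the 132 SE events it spans 2 or more exons of the canonical transcript.

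In 6 events the groups differed by 10 points or more, 3.28% of the RAB events against 7.17% of all. Of these, 3 in RAB34 are pairs that share the same competing exon and therefore the same reads of it, 40 over the control and 23 over the SAM68 libraries. The others are the overlapping RAB9A events described with the late endosome genes and an exon of RAB40B, which belongs to a group of RAB proteins that act with ubiquitin ligases. This RAB40B exon was at 46.7, 64.3 and 26.7% in the control and 26.7, 29.4 and 31.6% in the SAM68 libraries, at a mean of only 19.8 reads. Its difference of -16.7 points had an interval from -38.9 to 5.57, and the groups overlapped. It was -7.45 points without the second-listed control library and -26.3 without the third-listed one.

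Among the 68 events of 10 genes of transport between the endoplasmic reticulum and the Golgi apparatus, 2 had an unadjusted p under 0.05. The choice between the RAB6A exons printed above was followed over 313.5 reads per library. The first exon took 67.3, 57.7 and 64.0% of the reads in the control and 62.7, 54.2 and 73.4% in the SAM68 libraries. The SAM68 libraries hold both the lowest and the highest value, and the groups overlap. The means were 63.0% ± 4.89 and 63.5% ± 9.64 (SD, n = 3), and the difference of 0.451 points had a 95% interval from -7.47 to 8.37 (adjusted p = 0.956, quasi-binomial model). The sign turned without the second-listed control (-2.20 points) or the third-listed SAM68 library (-4.55), and the difference reached 5.07 points without the second-listed SAM68 library. Near copies of the first exon, each differing at 5 bases, lie on chromosome 2 in RAB6C and RAB6D, so reads of this exon could be split with them, and how they were assigned was not tested.

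RAB1A, which works with tethers in transport from the endoplasmic reticulum to the Golgi apparatus, holds the deepest alternative event of this group (1056.5 reads). It sets exon 3 (chr2:65097971-65098066) against a later exon (chr2:65088939-65089070), and 2 annotated transcripts hold both. The PSI was 61.9, 58.5 and 58.4% in the control and 54.8, 58.2 and 58.0% in the SAM68 libraries. All SAM68 values lie below all control values, but by 0.224 points at the nearest. The difference was -2.60 points with an interval from -6.29 to 1.08 (adjusted p = 0.736), and it was -1.45 points without the first-listed control and -1.496 without the first-listed SAM68 library. Exon 4 of RAB1A (chr2:65090983-65091078, 96 nt, coding) was included at 98.3% ± 0.761 in control and 99.4% ± 0.697 in SAM68 cells, with an adjusted p of 0.566 in the quasi-binomial model. The difference of 1.08 points was 0.671 without the second-listed control library.

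RAB34, a Golgi RAB also known for its part in forming cilia, had the most listed events, with 31 of the 183. Its deepest alternative pair (chr17:28716903-28716994 and chr17:28715993-28716061), which 4 annotated transcripts contain together, was read 427 times per library. It gave 60.4, 64.4 and 61.7% in the control and 60.9, 61.8 and 60.8% in the SAM68 libraries. These values overlap, and the difference was -1.02 points with an interval from -6.53 to 4.48 (0.101 points without the second-listed and -1.90 without the first-listed control library). An acceptor site of exon 7 gave 97.8% ± 1.42 and 99.2% ± 1.06 (adjusted p = 0.67, quasi-binomial model), a difference of 1.47 points that was 0.780 without the second-listed and 2.20 without the first-listed control library. The shallow pair with the greatest difference of all RAB events had 0, 27.4 and 34.2% in the control and 59.8, 69.4 and 29.8% in the SAM68 libraries at 16.8 reads, and the groups overlapped (unadjusted p = 0.135).

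In RAB2A, which also acts at the Golgi apparatus, inclusion reads of an exon outside the canonical transcript came from 1 control library alone, with 9 reads there and 0 in each of the other 5. The PSI was 0.811% in that library (unadjusted p = 0.0257), and without it the difference was 0. RAB2B, its close relative, showed the same form of spread in the SAM68 group, where exon 3 (chr14:21474867-21474934) was at 79.8% in the third-listed library, with 18 inclusion reads beside 3 reads that leave out exons 3 to 5, and at 100% in each of the other 5 libraries. For exon 3 of RAB6A (chr11:73720846-73720899, 54 nt), 4 reads of 1 control library and 0 of the other 5 joined exon 2 to exon 7 and so left out exons 3 to 6.

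Early endosome genes, 26 events in 6 genes, had 1 event with an unadjusted p under 0.05. This was exon 4 of RAB21, a RAB of integrin uptake (chr12:71773959-71774022), which was skipped in 5 reads of the third-listed SAM68 library (95.8%) and in 0 reads of the other 5 libraries. RAB5A and RAB5B, master regulators of early endosome fusion, each held an alternative pair, whose exons 4 annotated transcripts of RAB5A and 2 of RAB5B hold together. For RAB5A (chr3:19976047-19976169 against chr3:19978310-19978403) the first exon took 57.6, 55.3 and 57.4% in the control and 57.7, 58.1 and 63.7% in the SAM68 libraries. The groups do not overlap, but the nearest values are 0.126 points apart, and the difference of 3.07 points had an interval from -4.30 to 10.4 (adjusted p = 0.835). Without the third-listed SAM68 library it was 1.15 points. For RAB5B (chr12:55989947-55990098 against chr12:55990682-55990804) the values were 37.7, 49.7 and 41.2% in the control and 50.3, 44 and 38.3% in the SAM68 libraries, which is nearly the same range. The difference of 1.33 points turned to -1.27 without the first-listed control and -1.72 without the first-listed SAM68 library, and it reached 4.76 without the second-listed control and 4.27 without the third-listed SAM68 library. RAB31, which sorts cargo between the trans-Golgi and endosomes, had a seldom used exon at 0.879% ± 0.617 in control and 2.36% ± 1.29 in SAM68 cells (adjusted p = 0.566, quasi-binomial model). The difference of 1.49 points was 0.974 without the first-listed SAM68 library.

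The recycling endosome group held 30 events in 6 genes, 3 of them with an unadjusted p under 0.05. RAB4B, a RAB of fast recycling to the cell surface, had the smallest p of all RAB genes. Reads that skip exon 2 (printed above) together with exon 3 numbered 1, 12 and 4 in the control libraries, beside 70, 149 and 83 inclusion reads. The SAM68 libraries had 0 skipping reads beside 76, 84 and 60 inclusion reads. The PSI was thus 97.7, 88.5 and 92.8% in the control libraries and 100% in all 3 SAM68 libraries, so the groups do not overlap. The difference was 6.997 points with an interval from 2.01 to 11.98, the unadjusted p was 0.00173 and the adjusted p 0.313. The 0 of 220 reads in the SAM68 group allow a share of skipping reads of up to 1.36%, a limit that covers counting error only. A second listed RAB4B event ends 481 nt after the same acceptor and shares the same skipping reads (difference 6.65 points, 4.13 without the second-listed control library, adjusted p = 0.313), so that these are not separate observations. Groups that do not overlap occurred in 7 of the 183 RAB events (3.83%), against 6.44% of all events read in every library.

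A further RAB4B event, exon 4 (chr19:40783778-40783840, 63 nt) listed between exons 1 and 6, had a mean of 8.67 reads and was just under the minimum of 10, so it was left out of the main test. The study's supplement lists it among SAM68-regulated events, chosen on these same samples. With no filter on reads it was tested, and 0 of 205 RAB events were called. The control libraries had 1, 6 and 4 inclusion reads beside 3, 11 and 7 skipping reads, and the SAM68 libraries 0 inclusion reads beside 5, 8 and 7 skipping reads. A RAB3A event at 8.50 reads stood next below it. Just above the minimum were a RAB30 event with 10.7 and a RAB34 event with 11 reads. The RAB4B gene overlaps the annotated read-through genes MIA-RAB4B and RAB4B-EGLN2 on the same strand, whose reads cannot be told apart from its own in shared exons.

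RAB4A, the close relative of RAB4B, used the longer form of exon 5 at 95.9, 97.3 and 90.03% in the control and 98.6, 99.1 and 98.1% in the SAM68 libraries. The SAM68 values all lie above the control values, and the difference of 4.19 points had an interval from 0.160 to 8.22 (unadjusted p = 0.0341, adjusted p = 0.67), and it was 1.999 points without the third-listed control library. An alternative pair of RAB4A (chr1:229286486-229286566 against chr1:229288729-229288843), which 1 annotated transcript holds together, gave 58.7% ± 1.37 and 56.3% ± 3.38 (SD, n = 3). The difference of -2.42 points was -0.599 without the first-listed and -3.93 without the third-listed SAM68 library. RAB11A, the main RAB of the slow recycling route, held the deepest alternative event of all, with 2004 reads per library over a pair (chr15:65877332-65877527 and chr15:65877762-65877955) that 5 annotated transcripts contain together. Its PSI was 58.5, 58.7 and 60.8% in the control and 58.7, 62.6 and 60.3% in the SAM68 libraries, with overlapping groups and a difference of 1.20 points (interval from -1.53 to 3.92). With single libraries left out the difference lay between 0.158 points, without the second-listed SAM68 library, and 2.11 points, without the first-listed one. It was also 0.796 points without the first-listed control library and 1.94 without the third-listed one.

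In the late endosome and lysosome group, 18 events in 4 genes, 3 events had an unadjusted p under 0.05. RAB29, a RAB of the trans-Golgi and of stressed lysosomes that recruits the kinase LRRK2, skipped exon 3 (printed above) in 2, 8 and 1 reads of the control libraries and in 0 reads of the SAM68 libraries. The PSI was 97.7, 89.6 and 98.2% in the control libraries and 100% in all SAM68 libraries, and the groups do not overlap. The difference was 4.83 points with an interval from 0.752 to 8.91 (unadjusted p = 0.0106, adjusted p = 0.465), and it fell to 2.06 points without the second-listed control library. The 0 of 247 reads in the SAM68 group allow a share of up to 1.21%, a limit that again covers counting error only.

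RAB9A, which acts in the return of mannose 6-phosphate receptors from late endosomes to the Golgi apparatus, had an untranslated exon (chrX:13703814-13703902) with 40, 35 and 27 skipping reads in the control and 0, 22 and 26 in the SAM68 libraries. The PSI was 67.6, 72.8 and 74.0% in the control and 100, 79.7 and 72.3% in the SAM68 libraries. The first-listed SAM68 library stands apart, and the groups overlap. The difference was 12.5 points (interval from 2.52 to 22.6, adjusted p = 0.539), and 4.55 points without that library. A longer form of the same exon (chrX:13703735-13703902) shares these skipping reads, and its difference moved from 22.0 to 4.49 points without that library and to 33.4 without the third-listed one. RAB7A, the RAB of late endosome maturation, included exon 4 (chr3:128806372-128806590) at 99.8 to 100% in every library, over 2043 reads per library.

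**Figure D2:**
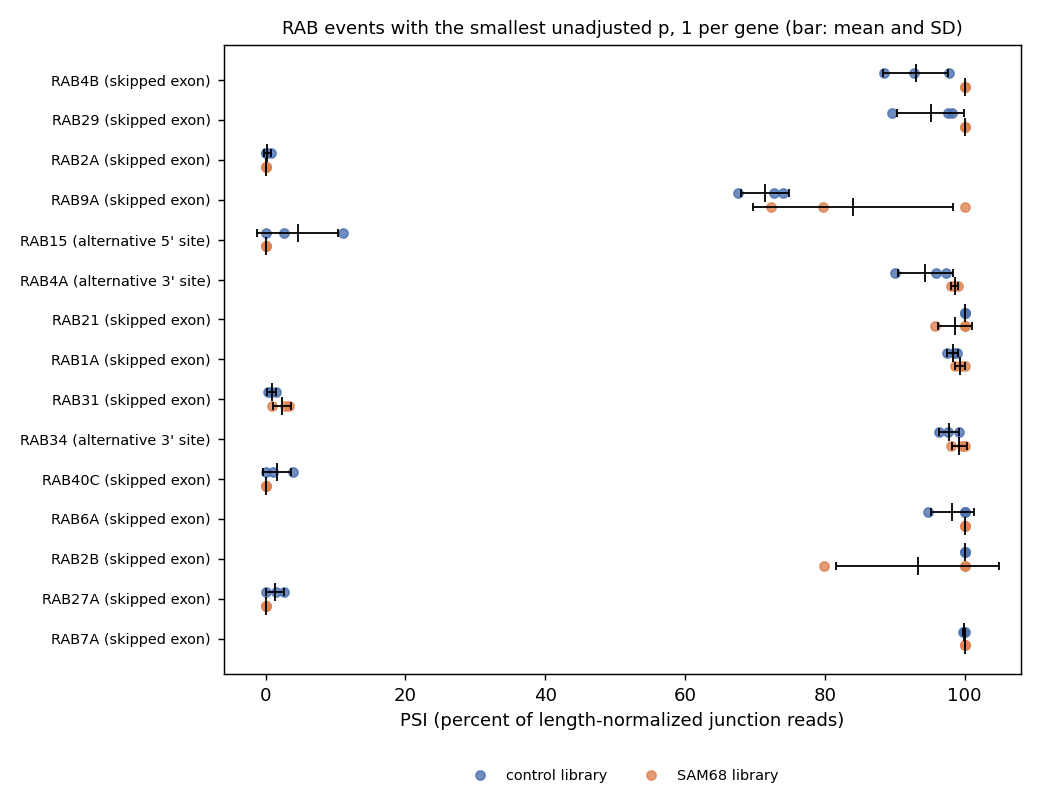
PSI in percent for the event with the smallest unadjusted p in each of 15 RAB genes. Points are libraries (blue control, orange SAM68), and bars give the mean and SD of the 3 libraries of a group. Apart from RAB9A, where 1 SAM68 library lies at 100%, every group mean lies near 0 or near 100%, between 0 and 4.60% or between 93.0 and 100%.

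The exocytosis group, 18 events in 6 genes, had 1 event with an unadjusted p under 0.05. It was in RAB15, which was listed in this group though it is known as a regulator of the endocytic recycling compartment. RAB15 used a donor site that lengthens an exon by 495 nt in 2, 6 and 0 reads of the control libraries and in 0 reads of the SAM68 libraries. The PSI was 2.70, 11.1 and 0% in the control libraries at a mean of 27.5 reads (unadjusted p = 0.0274, adjusted p = 0.604). Without the second-listed control library the difference moved from -4.60 to -1.35 points. RAB10, which carries vesicles to the plasma membrane, had an exon pair (chr2:26098662-26098722 and chr2:26109768-26109906) that 3 annotated transcripts contain together. Its PSI was 36.8% ± 2.78 in control and 37.3% ± 2.09 in SAM68 cells (SD, n = 3), with an interval of the difference from -4.46 to 5.37. The difference of 0.457 points turned to -0.708 without the first-listed control and -0.668 without the first-listed SAM68 library, and it reached 1.998 without the second-listed control and 1.40 without the second-listed SAM68 library. RAB27A, which docks secretory lysosomes and exosomes, had an exon without coding sequence (chr15:55259921-55260023) read in 2 reads of each of 2 control libraries and in 0 reads of the other 4 libraries (adjusted p = 0.566). Another RAB27A exon, at chr15:55237316-55237442, had a mean of 2.33 reads and was below the minimum, with 0 inclusion beside 1, 1 and 2 skipping reads in the control and 2, 2 and 3 inclusion beside 3, 0 and 0 skipping reads in the SAM68 libraries. The study's supplement lists this event too, chosen on these same samples.

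The remaining group, RABs of lipid droplets, cilia and other sites, had 0 of 23 events in 5 genes with an unadjusted p under 0.05. RAB18, found on lipid droplets and the endoplasmic reticulum, gave 62.0, 61.3 and 68.2% in the control and 56.2, 64.9 and 53.1% in the SAM68 libraries for the pair of chr10:27526828-27526889 and chr10:27533735-27533853. Both exons of this pair are held by 13 annotated transcripts. One SAM68 library lies within the control range, and the difference of -5.78 points had an interval from -14.1 to 2.52. It was -3.59 points without the third-listed control library, -3.29 without the third-listed SAM68 library and -9.18 without the second-listed SAM68 library. RAB28, a RAB of photoreceptor cilia, included exon 4 (chr4:13460699-13460828) at 84.8% ± 1.62 and 85.5% ± 5.98 (SD, n = 3), with an interval of the difference from -7.02 to 8.30. The difference of 0.636 points turned to -2.81 without the second-listed SAM68 library and reached 2.49 without the first-listed and 2.23 without the third-listed one. A noncanonical RAB40C exon (chr16:596317-596448) had 0, 3 and 1 inclusion reads in the control and 0 in the SAM68 libraries.

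Of the 28 exon pairs listed as mutually exclusive, 26 have at least 1 annotated transcript that holds both exons, and the pairs in RAB6A and RAB28 have none. For the 26, PSI weighs the reads of both exons against each other and need not measure a choice between them. Of the 10 alternative events with the most reads, 1 per gene, 8 are among these 26, 1 is the RAB6A pair and 1 is a skipped exon of RAB28.

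**Figure D3:**
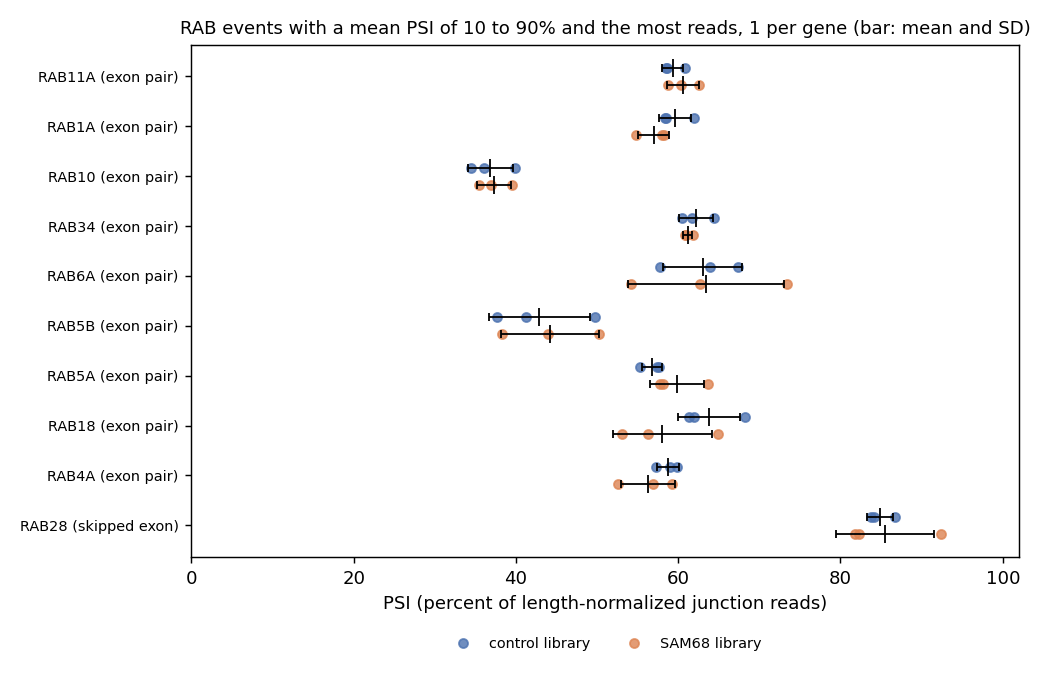
PSI in percent for the 10 RAB events with the most reads among those with a mean PSI of 10 to 90%, 1 per gene. Points are libraries (blue control, orange SAM68), and bars give the mean and SD of the 3 libraries. The group means of each gene lie within 5.78 points of each other, the distance reached by RAB18.

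SAM68 binds RNA with UAAA or similar letters, so TAAA was searched on the transcript strand in the 100 nt of genome on either side of each distinct SE exon. It was present beside 58 of the 105 RAB exons (55.2%) and beside 59.5% of 38685 exons of all genes. The mean number was 1.21 for the RAB exons and 1.32 for all, and the reversed strand, searched as TTTA, held it beside 65.7 and 68.8%. The flanks of RAB4B exon 2 held 0 copies, those of RAB29 exon 3 held 2 and those of RAB23, a RAB of cilia and Hedgehog signaling, up to 8. A match describes these letters only.

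Junction reads of the genes, taken from the event with the most reads in each gene and scaled to RPM, were compared next. To compare genes, the level was also divided by the effective length of that event and given per 100 nt. RAB7A had the highest level, 249.4 RPM per 100 nt, followed by RAB11A with 131, RAB2A with 98.5, RAB1B with 92.6 and RAB1A with 92.0 as means over the 6 libraries. The order of the last 3 depends on the group, since RAB1A was at 102.5 ± 1.72 in the control, above RAB2A (97.7 ± 4.25) and RAB1B (90.9 ± 4.47), and at 81.6 ± 9.06 in the SAM68 libraries, below RAB2A (99.3 ± 7.91) and RAB1B (94.3 ± 7.04; SD, n = 3). These 5 genes act at late endosomes, recycling endosomes and the Golgi apparatus. RAB30 with 1.48 and RAB36 with 1.01, both Golgi RABs, were the lowest of the genes tested as means over the 6 libraries. In the control libraries RAB40B (1.546 ± 0.49) lay just below RAB30 (1.553 ± 1.07; SD, n = 3). RAB26, a RAB of secretory granules, had only events under the minimum of 10 reads.

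Of 37 RAB genes, 0 were called at an adjusted p under 0.05 with a log2 fold change of at least 1, as were 5 of 10147 genes (0.0493%). RAB1A alone had an adjusted p under 0.05 (0.414% of all genes). Its level was 209.4, 203.0 and 208.4 RPM in the control and 144.5, 169.7 and 180.1 in the SAM68 libraries. All SAM68 values lie below all control values. The log2 fold change was -0.33 with an SE of 0.0747 and an interval from -0.49 to -0.18 (adjusted p = 0.0395, limma). With median-of-ratios size factors the log2 fold change was -0.30 and the adjusted p 0.0765. Without the first-, second- or third-listed control library it was -0.33, -0.35 and -0.33 (adjusted p = 0.249, 0.163 and 0.117, limma), and without the first-, second- or third-listed SAM68 library -0.24, -0.36 and -0.40 (adjusted p = 0.213, 0.0225 and 0.00768). All 14 RAB1A events, which share junctions, had fewer RPM in SAM68 cells, by -0.36 to -0.20 on the log2 scale of the group means, and 13 of them without overlap of the groups. Its paralog RAB1B, with 211.7, 192.4 and 208.4 in the control and 201.5, 229.4 and 204.2 in the SAM68 libraries, overlapped between groups (log2 fold change 0.05, interval from -0.09 to 0.19).

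In all, 6 of 37 RAB genes had an unadjusted p under 0.05 (12.1% of all genes), and 6 had groups that do not overlap (16.8% of all genes). RAB43, a Golgi RAB, had the lowest log2 fold change, -0.76 (interval from -1.27 to -0.24, adjusted p = 0.185), with 15, 14.8 and 8.70 RPM in the control and 7.57, 8.07 and 6.05 in the SAM68 libraries. It overlaps the read-through gene ISY1-RAB43. RAB8B, a RAB of polarized exocytosis, had -0.51, with 11.7, 15.1 and 14.9 in the control and 10.4, 7.34 and 11.4 in the SAM68 libraries (adjusted p = 0.35), and -0.33 without the second-listed SAM68 library. RAB18 had -0.38 (adjusted p = 0.194), and -0.15 when all its SE events were summed. RAB29 had -0.34 (adjusted p = 0.54), with -0.18 without the first-listed control, -0.17 without the first-listed SAM68 and -0.51 without the second-listed SAM68 library, and RAB7A -0.11 (adjusted p = 0.401), or -0.06 with all its SE events summed.

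The highest log2 fold changes were those of RAB40B (0.38), RAB36 (0.29) and RAB5A (0.28), with adjusted p of 0.74, 0.838 and 0.358 in limma. With a pseudocount of 2 RAB36 was at 0.19. RAB40B was at 0.14 without the first-listed control library and RAB36 at 0.02 without the first-listed and 0.46 without the second-listed SAM68 library. RAB5A had 46.7, 47.3 and 46.3 RPM in the control and 51.1, 49.9 and 71.7 in the SAM68 libraries. The groups do not overlap, and without the third-listed SAM68 library the log2 fold change was 0.11. RAB4A had 0.17, with 0.09 without the third-listed control library. RAB28 had 0.16, with 0.02 without the third-listed control or the third-listed SAM68 library, 0.29 without the first-listed control and 0.27 without the first-listed SAM68 library. The deeply read RAB11A, RAB10, RAB2A and RAB5C lay between -0.05 and 0.04 and each changed sign with at least 1 single library left out. The log2 fold change was below 0.5 in size for 35 of the 37 genes, and its median was 0.00 over the RAB genes and -0.03 over all genes.

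Genes that regulate or read RAB proteins were counted from lists of GEFs, TBC-domain GAPs, prenylation and GDI genes, and effectors. Of 821 tested events in 110 of these genes, 0 were called (0.0271% of all events), and 58 had an unadjusted p under 0.05, 7.06% against 8.46%. The counts at that p were 18 of 299 events for the GEFs, 12 of 227 for the GAPs, 3 of 45 for prenylation and GDI, and 25 of 250 for the effectors. The smallest p was that of an exon pair of OSBPL1A, which binds RAB7A on late endosomes, with 48.9 and 29.2% and an adjusted p of 0.0623. This pair is named here after its values were seen. The study chose OSBPL1A on these samples to check its RNA-seq analysis and reports, with q-PCR, that SAM68 regulates its splicing. A second OSBPL1A event was at 85.2% in control and 95.4% in SAM68 cells (adjusted p = 0.388, quasi-binomial model).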

How the data were processed

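RNA from NCI-H1975 cells was sequenced in 3 control and 3 SAM68 libraries. The authors filtered the reads, used fastp (0.20.0) and HISAT2 (2.1.0) on GRCh38, per the labels, and counted junctions with rMATS, whose version is not given in the sources used here. The deposited tables hold, for each event, the authors' raw junction counts of both forms and inclusion levels as lists of 3 values per group, and effective lengths. The authors' p-value, FDR and level difference were not used, and 0 columns of values per library were left out. The lists name no library. The first was taken as control and the second as SAM68 from the plots of the study, and KHDRBS1 reads go the same way.

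Of 78336 listed events, 113 A3SS events whose lists a spreadsheet had regrouped ambiguously were left out and 162 were recovered, and 19 lines were blank. Coordinates are those of hg38. All 115 listed RAB SE exons lie between AG and GT or GC.

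PSI was averaged over libraries. In MXE events it is the share of the exon closer to the 5ʹ end. Events reaching a mean of 10 reads were fitted by a quasi-binomial model with the group as term, the dispersion moderated within type (limma 3.58.1, R 4.3.3; prior degrees of freedom 14.0 to 24.9) and floored at 1, with an F test and Benjamini-Hochberg adjustment within type. Intervals of PSI differences use the same dispersion. With 3 libraries against 3, an exact two-sided permutation test cannot go below 0.1 and was not used for calls. Junction reads per gene were tested by limma with a trend on log2(RPM + 0.5). Totals for this were 5449695 to 6337736 reads per library. Libraries of a group differed by more than sampling noise (chi-square per degree of freedom 3.14 to 4.54), so none was counted as a duplicate file of another. On simulated counts the event test recovered 158 of 200 shifts of 30 points and 87 of 200 of 15 points. It made 17 false calls among 66395 events. The gene test recovered 200 of 200 changes of 4-fold, and smaller changes were not simulated. Recovery was not measured for the RAB events alone, of which 114 had a mean PSI above 95% and 26 under 5%. The simulated counts therefore do not show what share of such shifts would be found among the RAB events.

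Members and lists were chosen with earlier results of these data known. Named were the event with the smallest p in each of 15 genes, the 10 most read alternative events (1 per gene), RAB6A, RAB4B and RAB27A, and genes with an adjusted p under 0.05, the 5 highest and lowest fold changes, or the most reads of their group. An event each of RAB4B and RAB27A was named because the study's supplement lists it. Fold changes are on the scale of log2(RPM + 0.5). The alternatives were other tests (logit of PSI, own dispersion, pooled counts, shared dispersion), no length normalization, minima of 0, 20 and 50 reads, adjustment over all types, other limits on the PSI difference, other scalings, pseudocounts, voom weights, and each library left out.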

Additional observations from a re-analysis of the deposited data

How the results depend on the processing

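The count of called RAB events stayed at 0 under all alternatives except the likelihood ratio test on pooled counts, which takes no account of the spread between libraries. It called 2, both in RAB9A (adjusted p of 0.0105 and 0.0106), and 8 had an adjusted p under 0.05. It called 1357 events over all genes. Leaving out each library gave 0 to 0 called RAB events. For the regulator lists the count of 0 became 20 of 821 events with pooled counts (2.04% of all events) and 1 of 821 with a shared dispersion (OSBPL1A, 0.142% of all events), an alternative chosen after seeing the data. The count of called RAB genes stayed at 0, and KHDRBS1 ranged from 1.95 to 2.01 on the log2 scale.

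Signs turned with single libraries left out, where the PSI difference ranged from -4.55 to 5.07 points for RAB6A, from -0.708 to 2.00 for RAB10, from -1.90 to 0.101 for RAB34, from -1.72 to 4.76 for RAB5B and from -2.81 to 2.49 for RAB28, and the log2 fold change from -0.081 to 0.001 for RAB5C, from -0.015 to 0.092 for RAB2A, from -0.029 to 0.097 for RAB10 and from -0.003 to 0.087 for RAB11A. With all SE events summed, RAB28 was at -0.002 and RAB2A at -0.085. Without normalization by length the PSI difference moved by over 1.5 times for several events, to 4.49 points for RAB4B, 3.21 for RAB29, 2.77 for RAB31, 0.632 for RAB1A exon 4, 0.304 for RAB28, -8.42 for RAB15, -2.37 for RAB27A and -3.24 for RAB40C. The cause was not tested. RAB1A kept its sign in 12 of 12 alternatives and its adjusted p was under 0.05 in 7. No paired analysis was possible because the lists carry no replicate numbers. The 36 events whose intervals reach 10 points had a median of 42 reads per library, against 223.2 for the other 147, and the part of depth in this was not tested.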
